A study of Mus musculus with 59 samples.

Results

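Short interspersed nuclear elements (SINEs) were measured in sorted mouse bone marrow progenitors as 35 subfamilies, taken as the repeat rows whose class is written as SINE. The same 35 names stood in each of the 7 repeat tables read, among 887 to 1114 repeat rows per table. All 35 passed the filter on low counts in every comparison. They comprised 16 subfamilies of the Alu family (rodent B1 and its relatives), 5 of B2, 4 of B4, 4 of MIR, 4 of ID and 2 of Deu. MER131, whose class is written with a question mark, was the row just outside the rule and was not counted.

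RNA-seq libraries came from KLS cells (c-Kit+ Lineage- Sca-1+ stem and multipotent progenitors) and GMPs (granulocyte-monocyte progenitors) of C57BL/6 mice, all carrying 1 Cre allele (Cre +/-), controls included. In the Mx1Cre line, in which Cre is switched on by pI:pC and acts beyond blood cells, WT was Daxx +/+, Daxx-KO was Daxx F/F and the double knockout (DKO) was Daxx F/F Pu.1 F/F, at 3 weeks post induction (w.p.i.), with WT also at 24 w.p.i. A second set at 3 w.p.i. compared Pu.1 +/+ with Pu.1 F/F mice, written here as WT and Pu.1-KO of the Pu.1 line. A further set, called untimed here, had Daxx +/+ and Daxx F/F libraries whose labels give neither time nor mouse line, and no label gave an age. The study also sequenced, in duplicate and with another library kit, KLS cells and GMPs from irradiated mice transplanted with Daxx +/+ or Daxx F/F bone marrow. The titles of the untimed libraries do not say whether they are these. Each group had 2 libraries in the repeat tables, except that WT and Daxx-KO KLS cells had 3 each at 3 w.p.i. WT and Daxx-KO GMPs at 3 w.p.i. also had 3 libraries each in the gene table, of which WT c and Daxx-KO b were not in the repeat table read. The numbers in the column names differ within a group and are read as animal numbers, but the labels do not state this, so p-values measure the spread between libraries. The Daxx-KO and DKO columns at 24 w.p.i. and the stem cell and multipotent progenitor columns were not used here.

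SINEs are short retrotransposons that encode no protein and copy themselves with the enzymes of LINE elements. B1 descends from the signal recognition particle RNA (7SL), B2, ID and MIR from tRNA or tRNA-like genes, and B4 joins an ID-like and a B1-like part. Their internal promoter is read by RNA polymerase III, but most copies lie within or near genes, so a read can come from a SINE transcript or from a gene transcript that holds a copy, and the tables do not separate these sources. Daxx, with Atrx, deposits histone H3.3 at silenced repeats, and Pu.1, encoded by Spi1, directs myeloid differentiation. The study asked whether loss of the chaperone changes repeat expression.

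Repeat reads per library were 1482490 to 12894834 in the 26 timed libraries and 1263010 to 8616399 in the 8 untimed ones, of which SINE reads made up 523316 to 3222639. At this depth the 95% Wilson interval of a library's SINE share spanned at most 0.172 percentage points, which covers counting error only. Daxx read 423 to 505 normalized counts in WT KLS cells at 3 w.p.i., 72.2 to 102 in Daxx-KO and 78.1 to 93.9 in DKO. Spi1 gave no such check, with 1669 to 2320 in WT and 2993 to 3330 in the KLS libraries labelled DKO. In the Pu.1 line it read 2764 and 2080 in WT against 2920 and 1307 in Pu.1-KO KLS cells. In GMPs of that line it read 3395 and 3934 against 2589 and 2707. The DKO KLS libraries are named by their labels, which give the numbers in their column names. No label gives the numbers of the Pu.1 line columns. Their WT and Pu.1-KO names rest on the control or treatment ending of the repeat columns of the same number. Such an ending also underlies the names of the later WT libraries, the WT KLS library without a labelled number and WT GMP library c. B lineage markers summed to 4009, 30620 and 1308 in KLS Daxx-KO libraries 1, 2 and 3 against 280 to 632 in WT, and Pu.1-KO KLS library b had 74.6 repeat reads per 100 gene reads against 25.8 to 36.8 in the other KLS libraries of that line. In the untimed tables, repeat reads per 100 gene reads under the same library name ranged from 6.34 to 218.6 in KLS cells and from 13.6 to 109.9 in GMPs. With the genotype names of the repeat tables exchanged the same ratio ranged only from 36.4 to 38.1 and from 33.2 to 44.9. Daxx in the untimed gene tables read 118.7 and 137.8 under the WT label and 33.9 and 29.7 under the Daxx-KO label in KLS cells, and 215 and 143 against 44.6 and 22.8 in GMPs, so the gene table names ran as labelled and the doubt falls on the repeat table names. Those were kept as deposited, and the direction of each untimed difference turns if they were exchanged.

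Within the Daxx line, the family makeup of the SINE reads was nearly the same from library to library. In the 18 libraries of the Daxx line at 3 and 24 w.p.i., Alu rows held 34.1 to 36.2% of SINE reads, B2 rows 26.9 to 28.4%, B4 rows 26.4 to 28.6%, MIR rows 5.96 to 6.80%, ID rows 3.35 to 3.63% and Deu rows 0.0712 to 0.11%. These are read totals over all genomic copies, not adjusted for copy number or length. B3, an older B2 relative, was the most abundant row, with 11.0 to 11.6% of SINE reads and a coefficient of variation of 1.39% over the 18 libraries. RSINE1 held 7.91 to 8.46%, B4A 7.24 to 8.61%, ID_B1 7.13 to 7.51%, B2_Mm2 6.02 to 6.80% and B3A 5.74 to 6.07%, each within 5% variation. Of the young B1 rows, B1_Mus1 held 4.59 to 5.13%, B1_Mus2 3.50 to 3.99% and B1_Mm 1.63 to 1.89%. B4 held 3.68 to 4.26%, and the BC1-related ID4 and ID2 held 1.25 to 1.39% and 0.295 to 0.340%. The ancient MIRb, MIR, MIRc and MIR3, whose copies predate rodents, held 2.07 to 2.44%, 1.95 to 2.19%, 1.11 to 1.31% and 0.763 to 0.900%, with no overlap between the ranges of MIRb or MIR and those of MIRc or MIR3. Among rows above 1% of SINE reads, the young subfamilies B2_Mm1a and B2_Mm1t varied most, with coefficients of 13.2% (1.40 to 2.27% of SINE reads) and 8.42% (1.96 to 2.62%). FAM, a fossil Alu monomer, had only 15 to 177 reads in any library and is read with that limit. The other sets had the same families in other proportions. B2 rows held 28.7 to 31.4% in the Pu.1 line and 23.7 to 25.4% in the untimed libraries, so these ranges and that of the Daxx line did not overlap. Sequencing set and mouse line cannot be told apart in this contrast, nor, for the untimed libraries, a possible difference in library kit or transplantation.

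**Figure D1:**
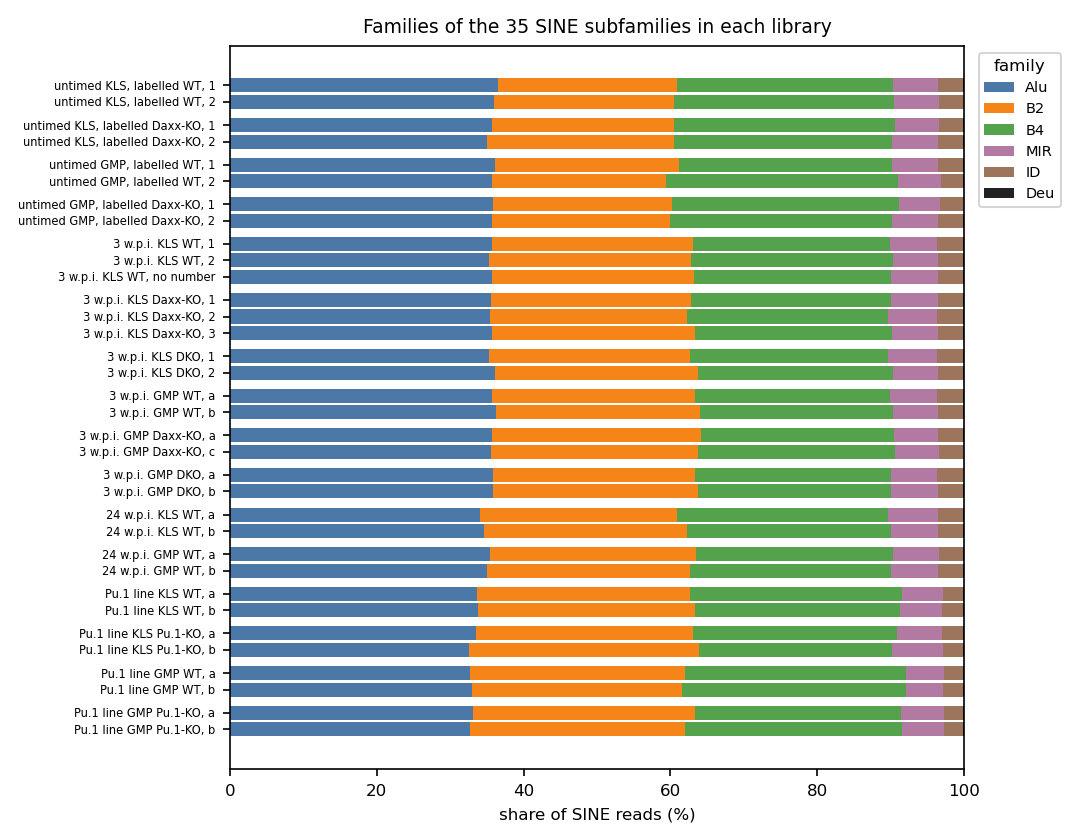
Share of SINE reads (%) held by each of the 6 families in each library, as stacked bars ordered by set, cell type and genotype. Alu rows held 34.1 to 36.2% in the Daxx line at 3 and 24 w.p.i. and 32.6 to 33.7% in the Pu.1 line.

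As a share of all repeat reads, SINEs ranged from 25.0 to 50.7%. In KLS cells at 3 w.p.i. the 3 WT libraries gave 49.0, 48.2 and 50.3% and the 3 Daxx-KO libraries 48.6, 46.4 and 49.1%. The groups overlapped, at 49.2% ± 1.09 (SD, n = 3) for WT and 48.0% ± 1.43 (SD, n = 3) for Daxx-KO, with an exact two-sided permutation p of 0.5. The 2 DKO libraries gave 50.7 and 48.6%, within reach of the same WT libraries (exact permutation p = 0.8). In GMPs the WT libraries gave 44.7 and 49.8%, the Daxx-KO libraries 43.5 and 41.4%, and the DKO libraries 50.1 and 43.2%. The difference of Daxx-KO from WT GMPs was -4.78 percentage points with no overlap, but 2 against 2 libraries cannot give an exact permutation p under 0.333, which is the value found. The 2 highest GMP values, WT b and DKO a, came from libraries with 20.3 and 21.8 repeat reads per 100 gene reads against 11.4 to 15.2 in the other 4, whose part in the difference was not tested. In both cell types DKO and Daxx-KO were compared with the same WT libraries.

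**Figure D2:**
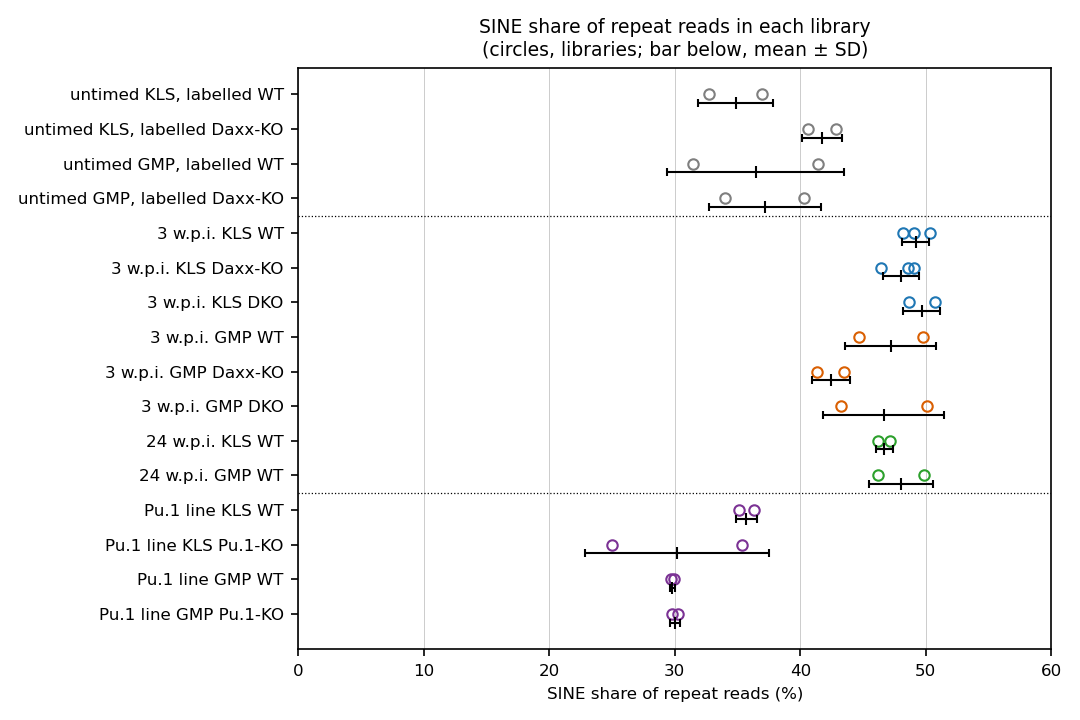
SINE share of repeat reads (%) in each library (circles), with the group mean ± SD as a bar below. KLS libraries of the Daxx line at 3 w.p.i. lie between 46.4 and 50.7% in all 3 genotypes, and those of the Pu.1 line lie lower, between 25.0 and 36.3%.

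At 3 w.p.i. no SINE subfamily was called in KLS cells that had lost Daxx. edgeR called 0 of the 35 in Daxx-KO against WT, where it called 0.613% of the 815 repeat rows tested, and 0 of the 35 reached an unadjusted p below 0.05, against 7.98% of all rows. DESeq2 also called 0. The 35 log2 changes had a median of 0.01, beside a median near 0 (-0.002) over all rows, with 26 above and 9 below 0. Apart from FAM, AmnSINE1 and AmnSINE2, the 3 rows of fewest reads, the changes lay between -0.04 and 0.06, and every 95% interval of these 32 rows lay between -0.17 and 0.16. A change of more than 0.2 on the log2 scale was therefore outside the interval of each of them on this scaling, which sets each row against the typical repeat row. B2_Mm1a held 1.58, 1.62 and 1.58% of SINE reads in WT and 1.62, 1.55 and 1.60% in Daxx-KO. Its groups overlapped, and its log2 change was close to 0.

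In DKO KLS cells, set against those WT libraries, no SINE was called either. edgeR called 0 of 35 subfamilies where it called 0.605% of 827 rows, DESeq2 called 0, and 1 of 35 reached an unadjusted p below 0.05, against 14.5% of all rows. That row was AmnSINE2, an ancient element of the Deu family, with 0.0219 and 0.0257% of SINE reads in DKO and 0.0187, 0.0195 and 0.0200% in WT, at a log2 change of 0.31 ± 0.13 (SE) and an adjusted p of 0.33. The DKO libraries lay above all WT ones, but the change was not called. B2_Mm1a held 1.40 and 1.57% in DKO, just below WT, at -0.08 ± 0.05 (SE) on the log2 scale. Set against Daxx-KO, DKO KLS cells again had 0 called subfamilies by edgeR and by DESeq2 (0.835% of 838 rows called by edgeR) and 0 with an unadjusted p below 0.05, against 10.3% of all rows.

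In GMPs the young B2 rows B2_Mm1a and B2_Mm1t had the highest log2 values of the class in Daxx-KO against WT and the lowest in DKO against Daxx-KO, though neither was called. B2_Mm1a, a young B2 subfamily, held 1.81 and 1.75% of SINE reads in WT, 2.16 and 2.27% in Daxx-KO, and 1.59 and 1.86% in DKO. Both Daxx-KO libraries were above every other Daxx line library at 3 or 24 w.p.i. Its log2 change was 0.33 ± 0.08 (SE) in Daxx-KO against WT and -0.38 ± 0.08 in DKO against Daxx-KO.

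B2_Mm1t followed it, with 2.29 and 2.31% in WT, 2.58 and 2.62% in Daxx-KO and 2.02 and 2.27% in DKO, and log2 changes of 0.18 ± 0.07 (SE) and -0.30 ± 0.07 in the same comparisons. Neither B2_Mm1t nor B2_Mm1a was called, at edgeR adjusted p-values of 0.98 and 0.82 in Daxx-KO against WT and 0.88 for both in DKO against Daxx-KO. With counts scaled by gene reads the Daxx-KO change was -0.03 for B2_Mm1a and -0.18 for B2_Mm1t, beside a SINE median of -0.38, so the sign of both turned with this shift of all rows. The 2 Daxx-KO libraries of the repeat table also had the lowest summed neutrophil markers of its 6 libraries, at 37400 and 38090 normalized counts against 52560 and 280800 in WT and 106200 and 155100 in DKO, with no marker of the 5 at 0, and their part in the B2 values was not tested. The libraries in the gene table alone gave 272400 for Daxx-KO b and 218800 for WT c, so low neutrophil markers were not shared by the whole Daxx-KO group. In sorted bulk cells, fewer cells of a type and less RNA per cell cannot be told apart.

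Among the other members FAM gave -1.17 in Daxx-KO against WT, with a 95% interval from -2.42 to 0.07 on the log2 scale, and all but FAM, AmnSINE1 and AmnSINE2 lay between -0.13 and the 0.33 of B2_Mm1a. edgeR called 0 of 798 repeat rows (0.0%) and 0 SINEs in Daxx-KO against WT, in DKO against WT and in DKO against Daxx-KO, and DESeq2 called 0 SINEs in each. The SINEs with an unadjusted p below 0.05 numbered 2, 1 and 3, against 3.76%, 3.26% and 5.26% of all rows. Beside the B2 rows these were AmnSINE1 in DKO against WT (log2 change -0.33 ± 0.11 SE) and ID, named for the identifier elements related to BC1 RNA, in DKO against Daxx-KO (0.24 ± 0.08 SE). The median SINE change was -0.02, -0.01 and 0.00 in turn. In simulated counts of this design 72.7% of 2-fold changes but only 3.03% of changes of 0.3 on the log2 scale were recovered. The changed rows were drawn from all repeat rows, so this rate does not give the recovery for a row as abundant as B2_Mm1a.

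**Figure D3:**
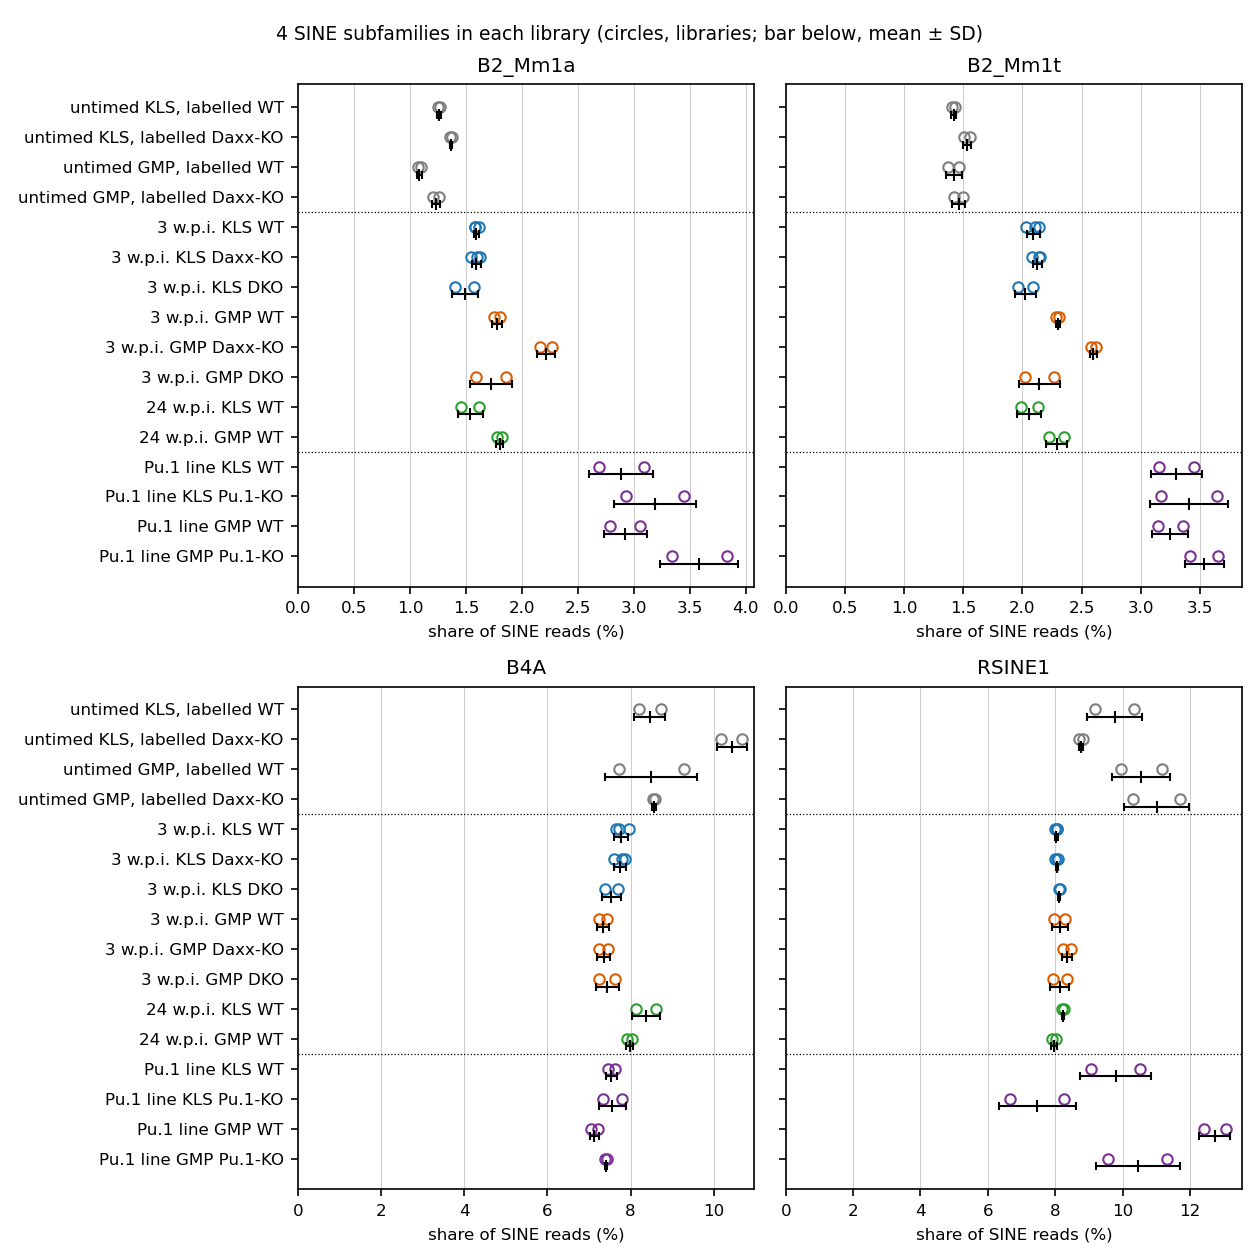
Share of SINE reads (%) of B2_Mm1a, B2_Mm1t, B4A and RSINE1 in each library (circles), with the group mean ± SD as a bar below. B2_Mm1a reads 2.16 and 2.27% in the Daxx-KO GMPs at 3 w.p.i., and RSINE1 spans 6.66 to 13.1% in the Pu.1 line.

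In the Pu.1 line all 35 SINE rows read lower, relative to the typical repeat row, in Pu.1-KO than in WT KLS cells, although none was called and the sign of their median turned with counts scaled by gene reads. RSINE1, a B4 family row, held 10.5 and 9.06% of SINE reads in WT and 8.28 and 6.66% in Pu.1-KO, without overlap, and had the lowest value of the class, -0.93 ± 0.29 (SE) on the log2 scale. B1_Mus1, a young B1 row, held 5.06 and 5.12% in WT and 4.71 and 4.36% in Pu.1-KO, at -0.72 ± 0.22. B2_Mm1a went the other way as a share of SINE reads, with 2.69 and 3.09% in WT and 2.93 and 3.45% in Pu.1-KO, and overlapped.

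Of the 35, edgeR called 0, at a smallest adjusted p of 0.22, where it called 0.236% of 847 rows. At an unadjusted p below 0.05 there were 30 of 35, against 19.2% of all rows, but 2 with only the 2 groups compared, 1 with library totals, 0 with counts scaled by gene reads and 1 without WT library a. The SINE median was -0.53, beside 0.02 over all rows, 0.02 over LINE rows and 0.06 over LTR rows. By family the medians were -0.57 for Alu, -0.56 for ID, -0.52 for B2 and B4, -0.39 for Deu and -0.36 for MIR. DESeq2 called 21 of the 35, all lower, and 5.79% of all rows. Without Pu.1-KO library b edgeR called 0 with a median of -0.26, and without library a it called 33 with a median of -0.84, where 23.8% of all rows were called. With counts scaled by gene reads the SINE median was 0.62 but that of all rows 1.27, and with library totals alone they were -0.21 and 0.34, a rescaling that shifts all rows nearly alike. The SINE share of repeat reads was 36.3 and 35.1% in WT and 35.4 and 25.0% in Pu.1-KO, with overlap (exact permutation p = 0.667). Neutrophil markers summed to 39710 and 22070 normalized counts in WT and 117100 and 57060 in Pu.1-KO, and KLS markers to 67030 and 56480 against 34930 and 14130, with no marker of either list at 0, and their part in the SINE values was not tested.

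In Pu.1-KO GMPs no SINE was called. The SINE median was -0.30 beside 0.02 over all rows, -0.08 over LINE and 0.07 over LTR rows, and all 35 were below 0, although with library totals alone the median was 0.04 (0.36 over all rows) and with gene reads 0.21 (0.53). edgeR called 0 of 847 rows (0.0%), 0 of the 35 SINEs had an unadjusted p below 0.05 (9.45% of all rows), and DESeq2 called 0 SINEs, while a fit to the GMP libraries alone called 22 SINEs and 13.4% of all rows. RSINE1 held 12.4 and 13.1% of SINE reads in WT and 9.57 and 11.3% in Pu.1-KO, at -0.61 ± 0.29 (SE). B2_Mm1a held 3.06 and 2.79% in WT and 3.83 and 3.34% in Pu.1-KO, so its share of SINE reads was higher in both Pu.1-KO libraries while its log2 value was -0.04 ± 0.16 (SE). The SINE shares of repeat reads overlapped, at 29.9 and 29.7% in WT and 29.7 and 30.3% in Pu.1-KO (exact permutation p = 0.667), while the LTR share was 24.0% ± 1.34 (SD, n = 2) in Pu.1-KO and 19.2% ± 0.844 (SD, n = 2) in WT and the LINE share 42.6% ± 0.658 and 48.3% ± 0.924. Neutrophil markers in these GMPs summed to 34210 and 27530 in WT and 154800 and 151600 in Pu.1-KO. The difference between the cell types in the effect of Pu.1 loss was not called for any SINE (edgeR adjusted p = 0.99 for all 35, 0 of 847 rows or 0.0% called, 0 SINEs and 2.24% of rows at an unadjusted p below 0.05, 0 by DESeq2). Its median over the 35 was 0.22, without Pu.1-KO KLS library b it was -0.06, and with counts scaled by gene reads it was -0.42, beside -0.72 over all rows.

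**Figure D4:**
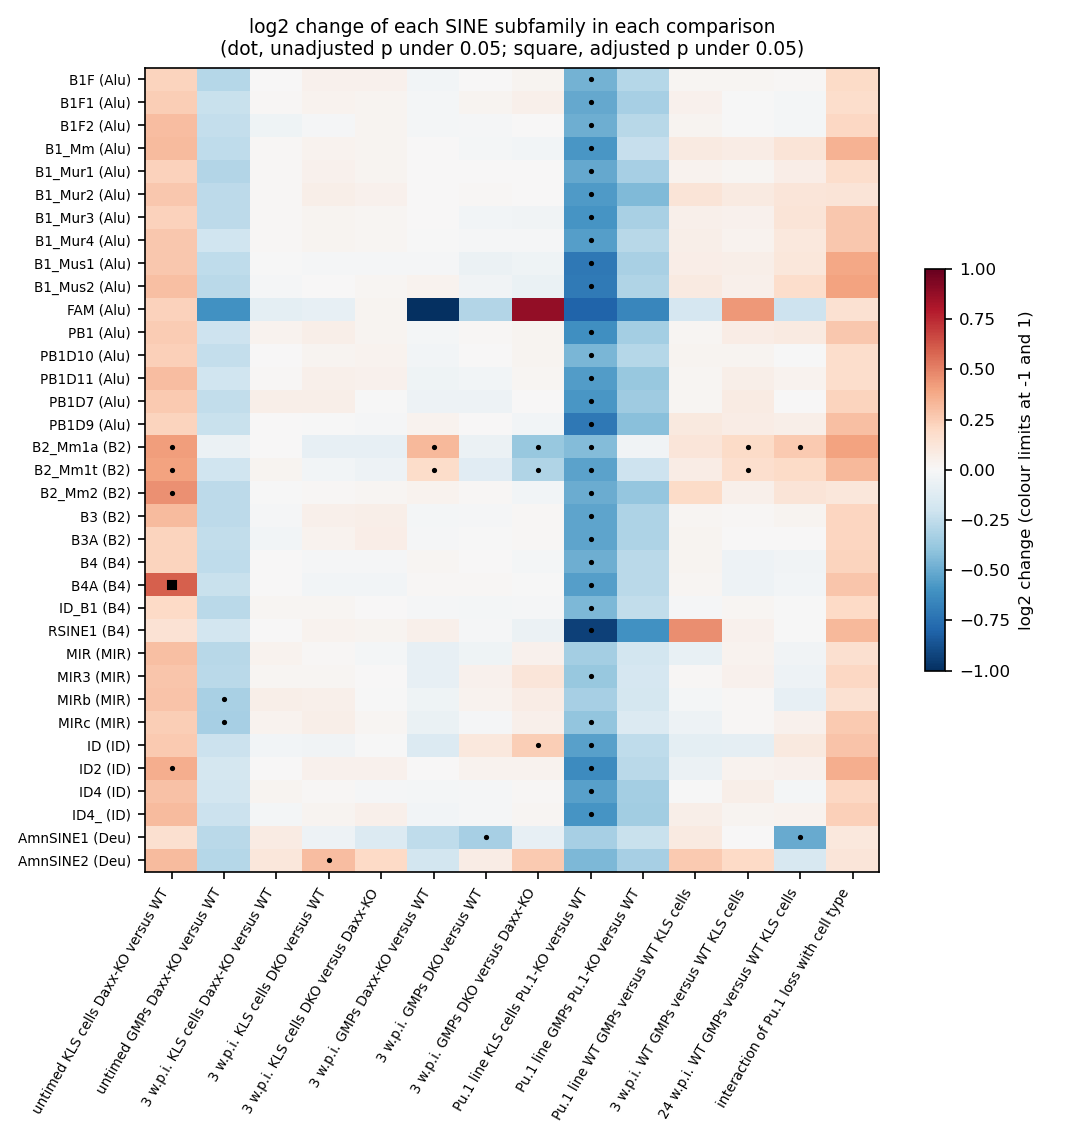
Log2 change of each SINE subfamily (rows, family in brackets) in each comparison (columns), in edgeR's scaling or, for untimed libraries, the authors'. Colour runs from blue (lower) to red (higher) and is limited at -1 and 1, a dot marks an unadjusted p under 0.05 and a square an adjusted p under 0.05; the column of Pu.1-KO KLS cells holds 30 dots and the figure holds 1 square, B4A.

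Between WT GMPs and WT KLS cells, the same WT libraries as above, no SINE was called, and in the Daxx line B2_Mm1a had the highest value of the class apart from the scarce FAM and AmnSINE2. At 3 w.p.i. B2_Mm1a held 1.58 to 1.62% in the 3 KLS libraries and 1.75 and 1.81% in the 2 GMP libraries, with no overlap, at 0.19 ± 0.06 (SE) on the log2 scale and an edgeR adjusted p of 0.17. B2_Mm1t gave 0.17 ± 0.05 (SE) with an adjusted p of 0.16. At 24 w.p.i. B2_Mm1a held 1.46 and 1.62% in KLS cells and 1.82 and 1.78% in GMPs, again apart, at 0.27 ± 0.10 (SE), and AmnSINE1 held 0.0830 and 0.0805% in KLS cells and 0.0517 and 0.0611% in GMPs, at -0.50 ± 0.15. None of these was called, at adjusted p-values of 0.26 and 0.11.

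edgeR and DESeq2 called 0 SINEs at either time and in the Pu.1 line, where edgeR called 1.19%, 1.95% and 0.472% of all rows at 3 w.p.i., 24 w.p.i. and in the Pu.1 line. The SINEs with an unadjusted p below 0.05 numbered 2, 2 and 0, against 15.3%, 11.3% and 4.84% of rows. Leaving out GMP library b at 24 w.p.i. gave 9 called SINEs, where 5.48% of all rows were called. With counts scaled by gene reads B2_Mm1a gave -0.65 and B2_Mm1t -0.66 at 3 w.p.i., beside a SINE median of -0.80. In the Pu.1 line the SINE share was 36.3 and 35.1% in WT KLS cells and 29.9 and 29.7% in WT GMPs, without overlap at the smallest exact permutation p of 0.333, and the LINE share was 11.96 percentage points higher in GMPs. At 3 w.p.i. in the Daxx line the SINE shares of WT KLS cells and WT GMPs overlapped (exact permutation p = 0.6).

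Set against gene reads, SINE reads varied more than as a share of repeats. WT KLS cells at 3 w.p.i. had 13.9, 13.1 and 13.96 SINE reads per 100 gene reads, Daxx-KO 13.9, 8.97 and 13.4, and DKO 11.2 and 11.9. DKO libraries lay below all WT libraries, at 11.5 ± 0.479 (SD, n = 2) against 13.6 ± 0.465 (SD, n = 3), with the smallest exact permutation p of 0.2, and scaled by gene reads edgeR called 27 SINEs lower in DKO, where it called 25.9% of all rows, at a median of -0.23 beside -0.26 over all repeat rows. The DKO libraries also had GMP markers at a summed 105600 and 109300 against 4670 to 42830 in WT, and KLS markers at 26600 and 34560 against 61980 to 88620. Neutrophil markers summed to 164300 and 132900 in DKO against 489 to 26310 in WT. No marker of these lists was at 0, and their part was not tested. The low Daxx-KO value was library 2, which had the highest summed B lineage markers of the 3, and their part was not tested.

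GMPs of the Daxx line at 3 w.p.i. had 5.58 and 10.1 SINE reads per 100 gene reads in WT, below all WT KLS libraries. At 24 w.p.i. the order was the reverse, with 10.3 and 9.83 in GMPs and 8.68 and 8.25 in KLS cells. The exact permutation p was 0.2 and 0.333 in turn, the smallest these designs allow. In the Pu.1 line WT KLS cells had 9.35 and 11.6 and Pu.1-KO 13.0 and 18.7, without overlap (exact permutation p = 0.333), while GMPs overlapped.

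**Figure D5:**
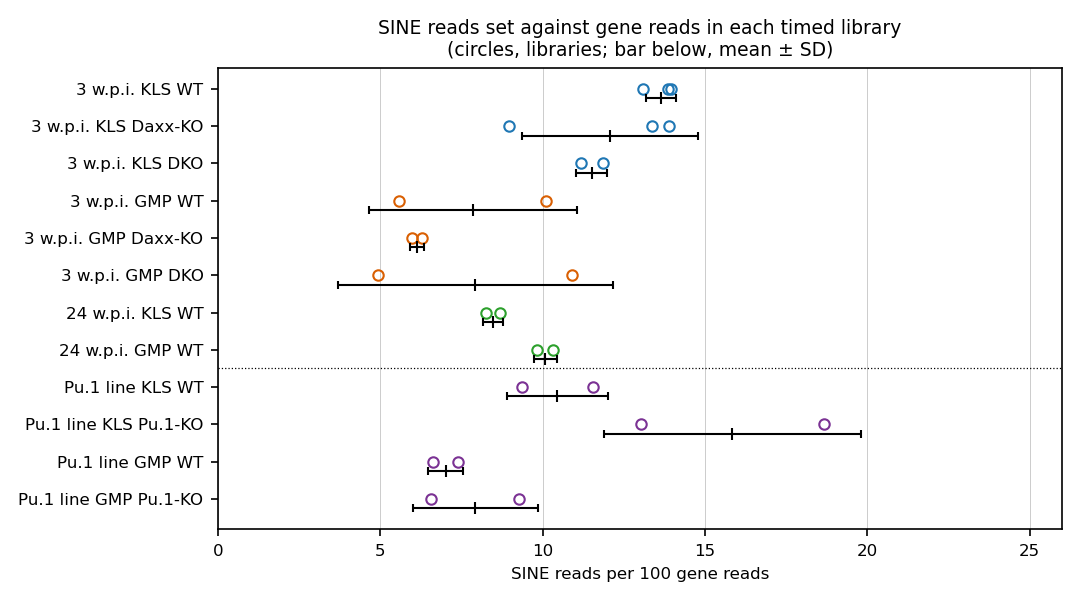
SINE reads per 100 gene reads in each timed library (circles), with the group mean ± SD as a bar below. KLS cells labelled DKO lie at 11.2 and 11.9, below the 3 WT libraries at 13.1 to 13.96.

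In the untimed KLS libraries 1 SINE was called. B4A, a B4 family row, held 8.73 and 8.20% of SINE reads in the libraries labelled WT and 10.7 and 10.2% in those labelled Daxx-KO, without overlap, and rose by 0.60 ± 0.18 (SE) on the log2(value + 1) scale in the latter (limma adjusted p = 0.018). The share of all 1007 rows called was 11.8%, and 5 of the 35 SINEs had an unadjusted p below 0.05, against 29.9% of rows, namely B4A, B2_Mm2, B2_Mm1a, B2_Mm1t and ID2. All 35 were above 0 with a median of 0.27, which equalled the median of 0.27 over all rows, and after a TMM rescaling the SINE median was 0.00 and B4A, at 0.33, was still called. Without Daxx-KO library 1, Daxx-KO library 2 or WT library 2 B4A was not called, nor with the replicate number as a block, and without WT library 1 there were 24 called SINEs, where 17.6% of all rows were called. The SINE share of repeat reads was 37.0 and 32.7% in the libraries labelled WT and 40.6 and 42.9% in those labelled Daxx-KO, at the smallest exact permutation p of 0.333. The B4A share in the timed libraries of the Daxx line was 7.24 to 8.61%, below both libraries labelled Daxx-KO. In the gene tables KLS markers summed to 36590 and 37960 normalized counts under the WT label and 9042 and 8441 under the Daxx-KO label, with no marker of the 7 at 0, and their part was not tested.

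In the untimed GMPs limma called 0 SINEs, where it called 14.3% of 992 rows, a count test on the recovered reads also called 0, and 2 SINEs, MIRb and MIRc, had an unadjusted p below 0.05, against 32.8% of rows. All 35 were below 0 with a median of -0.25, beside -0.28 over all rows, and 0.04 after TMM rescaling. Without WT library 2 there were 20 called, where 33.4% of all rows were called. The SINE share was 41.4 and 31.5% in the libraries labelled WT and 34.0 and 40.3% in those labelled Daxx-KO, which overlapped (exact permutation p = 1.0). B4A in these GMPs held 7.72 and 9.28% in the former and 8.54 and 8.59% in the latter.

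The genes of the RNA polymerase III machinery, 24 subunits, initiation factors and the repressor Maf1, were followed in the gene tables beside the SINEs, and 23 passed the filter. In Pu.1-KO GMPs limma called 8 of 23 lower and 0 higher, where 17.6% of genes were called, with a list median of -0.60 beside 0.00 over all genes. Polr3d, a core subunit, read 632.8 and 671.1 normalized counts in WT and 199.4 and 377.6 in Pu.1-KO, and fell by 1.25 ± 0.27 (SE) on the log2 scale (adjusted p = 0.00017). Polr3g, the subunit of the stem cell form of the enzyme, read 377.8 and 447.9 in WT and 205.6 and 200.3 in Pu.1-KO and fell by 1.02 ± 0.29. Polr1c, shared with polymerase I, Gtf3a, the factor for 5S rRNA genes, and Polr3e were also called lower, at adjusted p-values of 0.011, 0.016 and 0.0019. The SINE rows of the same GMPs had a median of -0.30 and no call. Without WT library a or b 0 of the list were called, and without Pu.1-KO library b 19.

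In Pu.1-KO KLS cells 0 of the 23 were called (0.81% of genes) at a list median of -0.91, beside 0.12 over all genes. In DKO KLS cells 2 were called lower, Polr3d (-0.84 ± 0.21 SE) and Polr3e (-0.54 ± 0.16), where 17.6% of genes were called, and this fell to 1 by edgeR on recovered reads and to between 0 and 1 when a library was left out. Of 5 genes of RNA-binding proteins also followed (Srp9, Srp14, Ssb, Adar and Dicer1), only Srp9 was called in these DKO cells. Srp9, a protein that binds B1-like RNA, rose by 1.07 ± 0.18 (SE) there, in cells whose SINE rows had 0 calls. The shifted marker sums of these DKO libraries are given above, and their part in the gene calls was not tested. In the untimed GMPs 3 of the 5 were called lower, Srp9 among them (-0.44 ± 0.15 SE), and 1 higher, where 33.0% of genes were called. No other comparison called any of the 5. After Daxx loss alone 0 of 23 were called in KLS cells (0.257% of genes) and in GMPs (0.0948%, 3 libraries against 3), as in DKO GMPs (0.292%). In the untimed libraries 0 were called in KLS cells (23.1% of genes) and 1, Gtf3a (-0.90 ± 0.24), in GMPs (33.0%).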

How the data were processed

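The authors deposited raw read counts per repeat subfamily for the timed libraries and, for the untimed repeats and all genes, counts divided by DESeq2 size factors (a normalized signal). Per the submitters' notes the tools were CASAVA 1.8.4, cutadapt 1.13, STAR 2.5.3 and DESeq2 1.16.1 on mm10, and the study names GENCODE release M14; the labels of the untimed repeat tables name TEtranscripts, while its version, its strand setting, its use of reads with many alignments and the counter of the timed tables are not given in the sources used here. Such reads can be split among near-identical subfamilies, so single rows are less certain than families.

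Raw counts were fitted with edgeR 4.0.16 (quasi-likelihood, TMM), over the repeat rows kept by its filterByExpr function. Normalized values were fitted with limma 3.58.1 on log2(value + 1), over repeat rows or genes with a mean of 10 or more. Both used 1 coefficient per group and Benjamini-Hochberg adjustment over all rows or genes tested (called below 0.05). The DKO against Daxx-KO comparison of KLS cells and the WT comparison of cell types at 3 w.p.i. used counts joined over shared repeat rows. There all KLS and GMP libraries of the Daxx line at that time were scaled and fitted together. R 4.3.3, DESeq2 1.42.0, Python 3.11.15 and scipy 1.17.1 were used. Single values were compared by exact permutation tests over libraries. Dividing normalized values by 1 read's worth returned whole reads for 100.0% of values (tolerance 0.01), which gave depths and a count test. Of 111 value columns 38 were not used, because no label matched them or the design did not need them. Lettered libraries had a number in their column names that no label tied to a replicate of their group, and the letters follow the order of these numbers.

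The members and gene lists were chosen with earlier results of these data known. Every SINE row could be named; of polymerase III genes, at most 5 called ones per comparison. On simulated data 2-fold changes were recovered in 80% (untimed KLS), 87.8% (3 w.p.i. KLS), 72.7% (3 w.p.i. GMPs) and 73% (Pu.1 KLS) of cases. Alternatives were another test, another scaling, no filter, another pseudocount, fewer libraries and replicate blocks. The deviations of same-numbered or same-animal libraries had r of -0.242 to 0.158. Where both groups had 2 libraries, r was the same for both pairs, so this check cannot show that pairing was absent. In the main fits and permutation tests libraries were treated as independent, also those of the same number in both cell types. Depth and counting intervals are given with the results.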

Additional observations from a re-analysis of the deposited data

How the results depend on the processing

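Of the counts of calls and the SINE shares that answer a comparison, 114 values under another setting kept the reported result and 11 did not. Leaving out a library was not part of this tally, and neither were the read ratios. A count was taken as kept within 1.5 times the reported value. A share was taken as kept if its difference held its sign and its side of the p threshold, whatever its size. No exact permutation p of a share could fall below 0.1 in these designs, so only a change of sign could count against a share. The cause of each change below was not tested. The count of called SINEs became 21 by DESeq2 in Pu.1-KO KLS cells and 22 with only the 2 groups compared in Pu.1-KO GMPs. Scaling by gene reads, an alternative added after the data were seen like the DKO against Daxx-KO comparison of KLS cells and the WT comparisons of cell types at 3 and 24 w.p.i., gave 27 called in DKO KLS cells and 7 between WT GMPs and KLS cells at 24 w.p.i. (4.74% of all rows), where library totals gave 1 (2.68%). The polymerase III list gave 1 call in place of 2 in DKO KLS cells by edgeR on recovered reads and without a filter, and 1 in place of 0 in Pu.1-KO KLS cells by edgeR.

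Scaling by gene reads turned the sign of these log2 changes. In Daxx-KO against WT GMPs it gave -0.0334 for B2_Mm1a and -0.18 for B2_Mm1t, and in DKO against Daxx-KO GMPs 0.0636 for B2_Mm1t. In WT GMPs against KLS cells at 3 w.p.i. it gave -0.65 for B2_Mm1a and -0.66 for B2_Mm1t. In Pu.1-KO KLS cells it gave 0.42 for B1_Mus1, 0.75 for B2_Mm1a, 0.66 for B2_Mm1t, 0.59 for B4A, 0.60 for ID, 0.79 for MIRc and 0.19 for RSINE1.

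The replicate number as a block removed the B4A call in untimed KLS cells (0 called), and it changed no other SINE call. Same-numbered libraries showed little shared deviation (r = 0.03 in untimed KLS cells, -0.21 in untimed GMPs, 0.16 and 0.04 in KLS cells at 3 w.p.i.), as did libraries of 1 animal in both cell types. With so few libraries this cannot show that pairing was absent. A block by animal called 0 SINEs. A crossed block, added later, called 1 SINE in untimed GMPs (22.1% of all rows) and 1 between WT GMPs and KLS cells of the Pu.1 line (3.86%).

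Leaving out each library in turn, a lone library being assumed to vary like the others, moved the count of called SINEs from 0 to 24 in untimed KLS cells (24 without WT 1), 0 to 20 in untimed GMPs (20 without WT 2), 0 to 33 in Pu.1-KO KLS cells (33 without Pu.1-KO a), 0 to 9 at 24 w.p.i. (9 without GMP b) and 0 to 3 for the interaction (3 without Pu.1-KO KLS a). Differences in SINE share changed sign in ranges, in percentage points, of -4.27 to 5.72 in untimed GMPs, -0.525 to 1.52 for DKO against WT KLS cells, -4.00 to 2.85 for DKO against WT GMPs, -0.063 to 0.474 in Pu.1-KO GMPs, -4.53 to 0.6 at 3 w.p.i. for WT GMPs against KLS cells and -0.482 to 3.14 at 24 w.p.i. Differences in SINE reads per 100 gene reads did so in ranges of -2.46 to 0.00567 for Daxx-KO against WT KLS cells, -2.13 to 0.335 for DKO against Daxx-KO KLS cells, -3.99 to 0.540 for Daxx-KO against WT GMPs, -2.91 to 3.07 for DKO against WT GMPs, -1.18 to 4.797 for DKO against Daxx-KO GMPs and -0.448 to 2.27 in Pu.1-KO GMPs. Calls on the polymerase III list ranged from 0 to 1 in untimed KLS cells, 0 to 4 in untimed GMPs, 0 to 1 in DKO KLS cells, 0 to 10 in Pu.1-KO KLS cells and 0 to 19 in Pu.1-KO GMPs.

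The 4 comparisons planned at 24 w.p.i. with knockouts and the one in long-term stem cells were not run, because no label matched the columns. At 2 libraries a group, changes of 0.3 on the log2 scale, set in rows drawn from all repeat rows, were mostly not recovered in simulation. The depth of abundant rows gave narrow counting intervals.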
